A study of Mus musculus with 9 samples.

Results

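The genes described here are 43 genes of cell division and DNA replication, taken by gene symbol from the 37980 rows of a table of RNA levels in sorted hair follicle stem cells. All 43 symbols were found. Of these genes, 26 were grouped as mitotic. They are the proliferation antigen Mki67, mitotic cyclins and their kinase, mitotic kinases with the spindle checkpoint, and proteins of the centromere, spindle and mitotic chromosome. The other 17 were grouped as replication genes. Their roles are in origin licensing and at the replication fork, in nucleotide synthesis, and at the entry into S phase with the upkeep of DNA methylation.

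The stem cells came from male mice of the strain C57BL/6J, aged 3 months, 19 months or 24 months, with 3 RNA-seq libraries for each age (9 in total). Sorting of dissociated skin of the back and belly selected cells with high CD49f and with CD34 on their surface, a combination that marks the bulge, the niche of the follicle's stem cells. The groups differ in age alone as far as the labels say, with no genetic change or treatment named. Whether the 3 libraries of a group are from different mice is not stated, so p-values describe library-to-library spread that may be technical. The library numbers in the labels form 1 block for 3 months and a separate block for 19 and 24 months, so any batch effect of the youngest group cannot be told apart from age.

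Levels are in FPKM, the fragments of a transcript divided by transcript length and by library size, which allows comparison between genes. The number of reads behind a value is unknown, so no counting error can be given. Cd34 stood at 403 to 632 FPKM, Itga6 (the gene of CD49f) at 72.7 to 117 and the basal keratin gene Krt14 at 3235 to 6619 over the 9 libraries, and the bulge genes Sox9 and Lgr5 at 102 to 193 and 52.2 to 135. Krt15, another bulge keratin, was listed at 0 in all 9 libraries, and Krt5 in the 3 libraries of 19 months and in no other. The endothelial markers Pecam1, Cdh5 and Kdr reached at most 0.446 FPKM. Of the immune markers, Ptprc reached at most 0.620 FPKM, while Cd3e of T cells was at 2.10 to 9.80 and Cd74 at 17.6 to 53.7.

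Cells duplicate their genome in S phase and divide it in mitosis, and each step has its own set of genes. Before S phase, Cdc6 and Cdt1 load the ring of Mcm2 to Mcm7, the replicative helicase, onto origins, and E2F transcription factors switch on these genes and those that supply nucleotides. The DREAM complex in resting cells and MuvB complexes in dividing ones control the mitotic genes through a promoter element called the cell cycle genes homology region, CHR, which often lies beside CCAAT boxes bound by NF-Y. Stem cells of the bulge are known to be quiescent for most of the hair cycle and to divide briefly at the onset of hair growth.

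The promoters of the genes were read to show these elements in the mitotic and the replication genes. The windows run from 250 bases before to 50 bases after the transcription start, from RefSeq on GRCm38.p6, a later build than that of the expression table, and 36 of the 43 genes had at least 1 window (39 windows in all). No window was given for Tpx2, Aurkb, Stmn1, Ccna2, Kif20a, Mcm4 and Ccne2. The letters searched, on both strands, were TTTGAA or TTCGAA for the CHR, CCAAT for the CCAAT box, and TTTCCCGC, TTTGGCGC, TTTGCCGC or TTTCGCGC for E2F. Neither the CHR nor the CCAAT letters lie within an E2F string, while E2F matches on opposite strands can overlap each other.

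The 8 windows shown are those of 4 mitotic and 4 replication genes on which the results below turn, each 5′ to 3′ on the strand of the gene, with matched letters in capitals. Cdk1, at chr10:69352863-69353162 on the minus strand, holds 2 CHR strings, 3 CCAAT boxes read on the other strand and, unlike the other mitotic windows, an E2F string. Ccnb2, at chr9:70421505-70421804 on the minus strand, holds 3 CCAAT boxes, with a CHR string downstream of the last and another far upstream. Plk1, at chr7:122159185-122159484 on the plus strand, holds a CCAAT box followed by a CHR string past the start. Mki67, at chr7:135716330-135716629 on the minus strand, holds 3 CCAAT boxes and 2 CHR strings.
Cdk1: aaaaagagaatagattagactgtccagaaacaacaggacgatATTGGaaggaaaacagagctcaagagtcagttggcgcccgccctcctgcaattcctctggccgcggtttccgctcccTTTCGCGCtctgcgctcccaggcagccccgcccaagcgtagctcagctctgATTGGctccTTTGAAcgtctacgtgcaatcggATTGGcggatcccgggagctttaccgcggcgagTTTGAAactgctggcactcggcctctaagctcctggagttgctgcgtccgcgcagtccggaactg
Ccnb2: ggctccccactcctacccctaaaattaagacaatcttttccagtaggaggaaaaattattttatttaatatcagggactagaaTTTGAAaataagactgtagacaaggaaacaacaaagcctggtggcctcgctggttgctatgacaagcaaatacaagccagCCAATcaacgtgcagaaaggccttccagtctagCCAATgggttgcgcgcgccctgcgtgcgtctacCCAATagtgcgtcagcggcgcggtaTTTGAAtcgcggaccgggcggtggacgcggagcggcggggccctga
Plk1: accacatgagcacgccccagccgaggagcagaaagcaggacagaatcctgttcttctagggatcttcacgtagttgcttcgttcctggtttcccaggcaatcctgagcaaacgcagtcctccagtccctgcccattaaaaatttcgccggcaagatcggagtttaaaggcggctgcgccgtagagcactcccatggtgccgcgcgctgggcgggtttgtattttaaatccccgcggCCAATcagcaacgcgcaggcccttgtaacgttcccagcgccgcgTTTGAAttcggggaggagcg
Mki67: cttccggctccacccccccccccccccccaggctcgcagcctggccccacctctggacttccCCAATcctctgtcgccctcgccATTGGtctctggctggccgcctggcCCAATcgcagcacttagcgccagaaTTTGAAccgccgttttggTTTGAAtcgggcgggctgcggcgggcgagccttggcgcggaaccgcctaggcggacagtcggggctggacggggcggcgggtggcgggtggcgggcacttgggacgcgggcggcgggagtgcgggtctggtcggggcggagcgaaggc

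Of the replication genes, Mcm3, at chr1:20820263-20820562 on the minus strand, holds 2 E2F strings past the start. Mcm5, at chr8:75109259-75109558 on the plus strand, and Mcm6, at chr1:128359656-128359955 on the minus strand, each hold a pair of overlapping E2F strings on opposite strands. Pcna, at chr2:132253131-132253430 on the minus strand, holds a CCAAT box and none of the E2F letters searched, which says only that these letters are not in this window.
Mcm3: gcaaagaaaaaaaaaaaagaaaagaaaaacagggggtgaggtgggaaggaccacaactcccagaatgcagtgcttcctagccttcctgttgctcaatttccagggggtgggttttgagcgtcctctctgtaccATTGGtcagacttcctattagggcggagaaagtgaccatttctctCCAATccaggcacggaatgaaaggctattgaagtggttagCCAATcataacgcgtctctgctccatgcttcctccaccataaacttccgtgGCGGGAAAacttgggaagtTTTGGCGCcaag
Mcm5: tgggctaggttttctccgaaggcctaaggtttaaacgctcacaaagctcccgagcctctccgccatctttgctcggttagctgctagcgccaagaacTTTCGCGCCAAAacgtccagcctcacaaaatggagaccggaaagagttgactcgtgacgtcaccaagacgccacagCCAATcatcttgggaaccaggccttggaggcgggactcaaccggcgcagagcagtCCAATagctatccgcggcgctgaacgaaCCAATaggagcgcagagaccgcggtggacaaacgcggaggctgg
Mcm6: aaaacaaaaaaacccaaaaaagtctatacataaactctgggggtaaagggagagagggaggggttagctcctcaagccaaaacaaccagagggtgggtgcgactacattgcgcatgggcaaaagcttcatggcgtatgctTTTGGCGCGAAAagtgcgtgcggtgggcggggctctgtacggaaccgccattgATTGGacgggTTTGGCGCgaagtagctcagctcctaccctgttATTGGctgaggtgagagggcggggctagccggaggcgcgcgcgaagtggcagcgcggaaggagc
Pcna: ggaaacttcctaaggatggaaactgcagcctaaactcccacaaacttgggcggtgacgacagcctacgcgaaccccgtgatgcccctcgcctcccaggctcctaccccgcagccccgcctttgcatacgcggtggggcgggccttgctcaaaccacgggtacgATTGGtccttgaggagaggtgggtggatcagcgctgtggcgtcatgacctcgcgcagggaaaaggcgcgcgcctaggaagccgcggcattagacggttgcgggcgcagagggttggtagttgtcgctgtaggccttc

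Over all windows of the members, the CHR letters were found in 17 of 22 mitotic windows (77.3%) and in 2 of 17 replication windows (11.8%). They were found in 19.2% of all 32851 promoter windows and in 13.6% of the windows of the genes tested below. The E2F letters were found in 7 of 17 replication windows (41.2%), 6 of them among the 9 windows of the licensing and fork genes, and in 1 of 22 mitotic windows. Their share was 2.26% of all windows and 3.89% of those of tested genes. CCAAT boxes were common to both classes, in 86.4% of mitotic and 64.7% of replication windows against 37.4% of all windows. These shares are descriptions of letters, and a match is not a bound site.

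**Figure D1:**
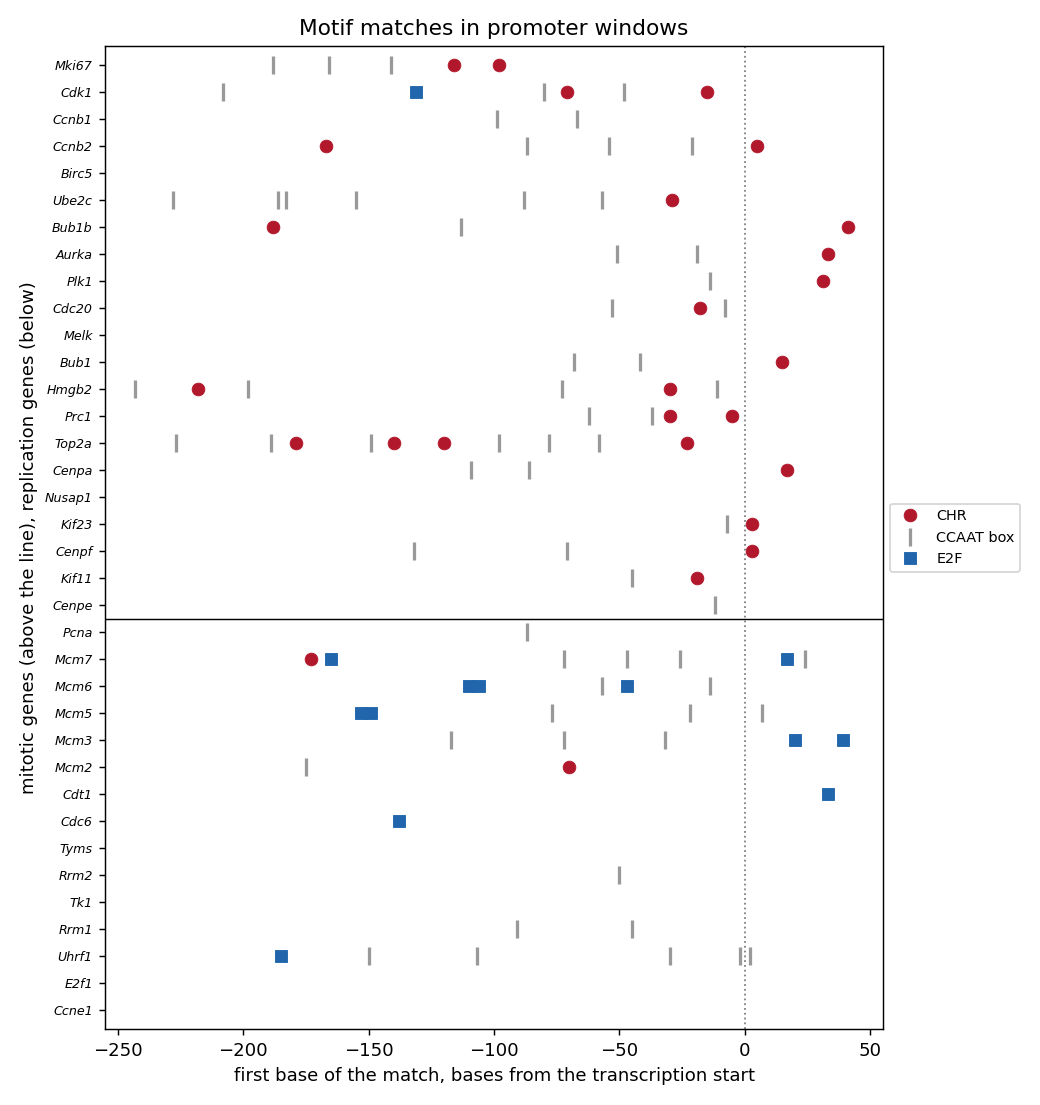
Position of each match of the CHR, CCAAT box and E2F letters in the promoter windows of 36 genes (y axis, mitotic genes above the line) by distance from the transcription start (x axis, bases, dotted line at the start). CHR matches (red) lie in 17 of 22 mitotic windows and E2F matches (blue) in 7 of 17 replication windows.

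The 43 genes spanned a wide range of levels, and the replication genes stood higher than the mitotic ones. The median level over the 9 libraries was 19.9 FPKM for the 17 replication genes and 4.37 for the 26 mitotic genes, against 10.9 for all 11509 protein-coding genes tested. Of the replication genes 11 stood above that median, and of the mitotic genes 6. Pcna, the sliding clamp of the replication fork, had the highest mean, at 90.6 FPKM. It was followed by the microtubule-destabilising Stmn1 at 53.9, by Mcm7 at 50.8 and by Tyms, which makes thymidylate, at 48.3. Mki67 averaged 2.49 FPKM, a level below which 14.8% of tested genes lay. The lowest were Ccne1, a G1/S cyclin, at 0.726 FPKM and Bub1, a spindle checkpoint kinase, at 0.766. These last 2 genes reached 1 FPKM in fewer than 3 libraries and were the only members left out of the tests.

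**Figure D2:**
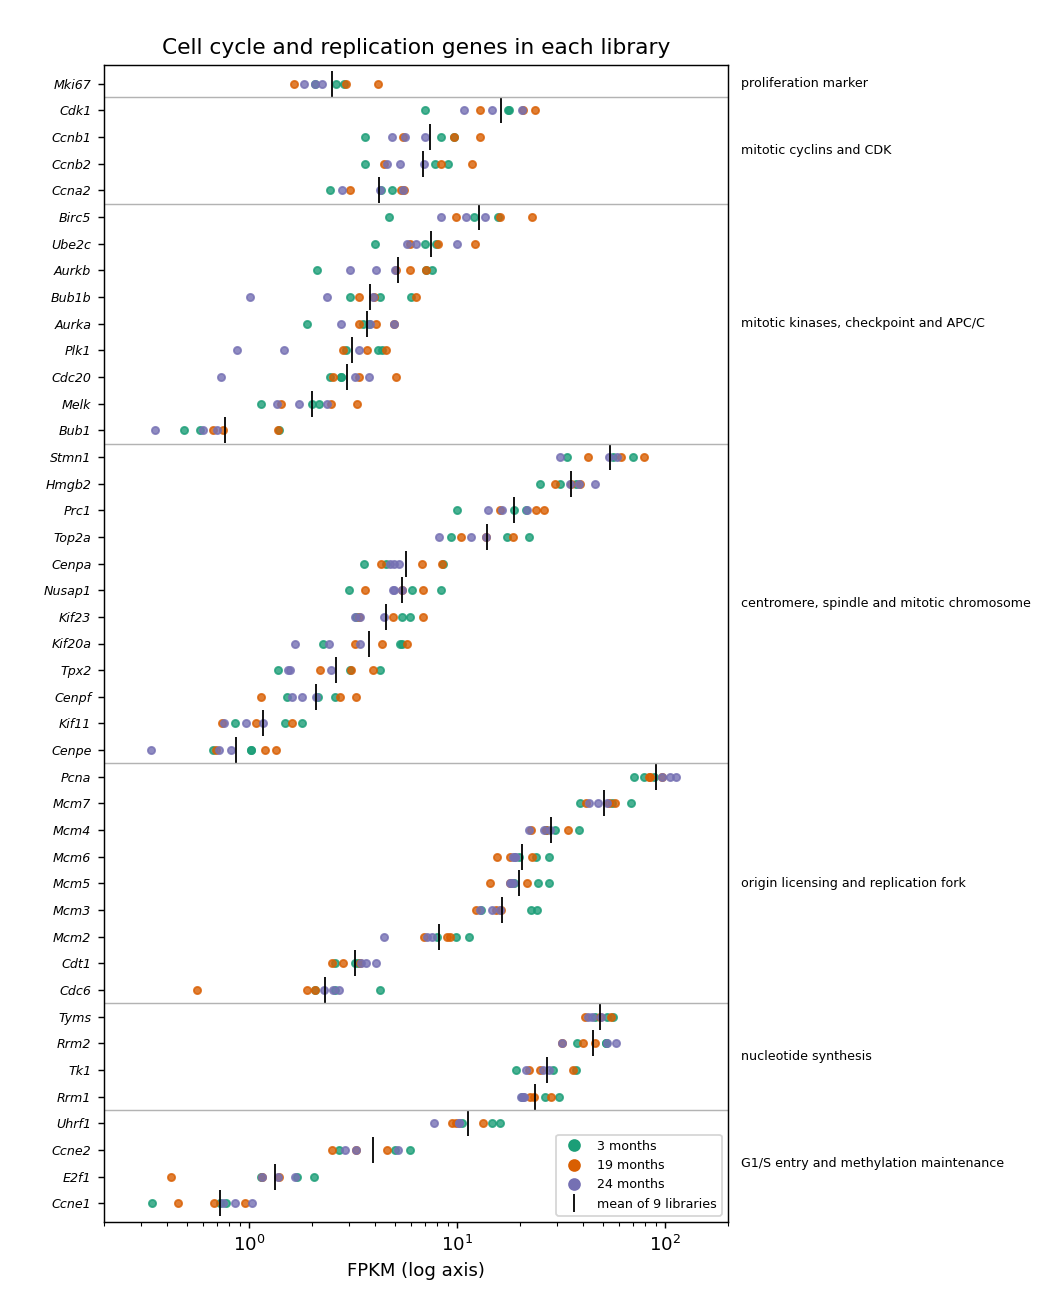
FPKM (x axis, log scale) of the 43 genes (y axis, grouped by role) in each of 9 libraries, coloured by age, with a bar at the mean. Replication and nucleotide synthesis genes such as Pcna (mean 90.6) stand to the right, and most spindle and checkpoint genes below 10 FPKM.

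Among the helicase subunits, the order of levels was nearly fixed. Mcm7 exceeded Mcm4, Mcm4 exceeded Mcm6, Mcm5 exceeded Mcm3 and Mcm3 exceeded Mcm2 in all 9 libraries, while Mcm6 exceeded Mcm5 in 6 of 9, so the levels of these last 2 were not separated. The ratio of Mcm7 to Mcm2 lay between 4.88 and 11.7. Exons of Mcm7 overlap those of 4 other genes, including Ap4m1 and Cops6, and with the use of strand not given in the sources used here its level is uncertain. The same holds for 11 other members with overlapping exons: Plk1, Cdc20, Kif20a, Prc1, Ube2c, Tk1, Nusap1, Ccna2, Ccne2, Stmn1 and Top2a. Pcna, Ccnb1, Ccnb2 and Tyms have named pseudogenes with which they could share reads.

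Other partners also kept their order. Rrm2 exceeded Rrm1, the other subunit of ribonucleotide reductase, in 9 of 9 libraries, with ratios between 1.36 and 2.78. The G1/S cyclin Ccne2 exceeded Ccne1 in 9 of 9, at ratios of 2.81 to 14.8. Cdk1, the mitotic kinase, exceeded its partner Ccnb1 in 9 of 9 by 1.84 to 2.94 times. The cyclins Ccnb1 and Ccnb2 were close, with ratios between 0.814 and 1.31. The checkpoint gene Bub1b exceeded Bub1 in 9 of 9 libraries. The midzone kinase Aurkb exceeded the centrosomal kinase Aurka in 8 of 9, the exception being replicate 4 of 24 months.

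None of the 41 tested genes passed limma's test in any comparison of ages. At 19 against 3 months the smallest adjusted p was 0.212, at 24 against 3 months it was 0.10, and at 24 against 19 months it was 0.217, with a threshold of 0.05. An F test for a change at any age called none of them either, with a smallest adjusted p of 0.125. By that test 5 of the 41 had an unadjusted p under 0.05, beside 2459 of all 11509 genes. Over all 11509 genes the same fit called 1.56% at 19 against 3 months, 3.84% at 24 against 3 months, 0.930% at 24 against 19 months and 4.54% at any age, so 0 of 41 lies near the background. The median 95% interval of a member reached 0.50 to each side on the log2(FPKM + 1) scale, against 0.37 for all genes. Changes on this scale understate those of low genes.

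Counts at an unadjusted p under 0.05 were likewise near the background. In the comparison of 19 with 3 months, 0 members were higher and 2 lower, Cdc6 and Mcm5, where 8.33% of all genes were higher and 7.34% lower. At 24 against 3 months Pcna and Hmgb2 were higher, and Plk1, Mcm2, Uhrf1, Bub1b and Kif20a lower, where 10.3% of all genes were higher and 11.3% lower. At 24 against 19 months 0 were higher and 3 lower, Plk1, Bub1b and Kif20a, where 5.77% of all genes were higher and 6.99% lower.

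Few members had libraries that did not overlap between ages. Between 3 and 19 months no member did so, against 11.0% of all genes higher and 11.6% lower. At 24 against 3 months Pcna and Cdt1 lay higher in all 3 libraries and Mcm2, Mcm5, Mcm6 and Uhrf1 lower, against 10.6% and 12.0%. At 24 against 19 months Cdc6 and Cdt1 lay higher and Aurkb and Rrm1 lower, against 7.94% and 10.4%.

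**Figure D3:**
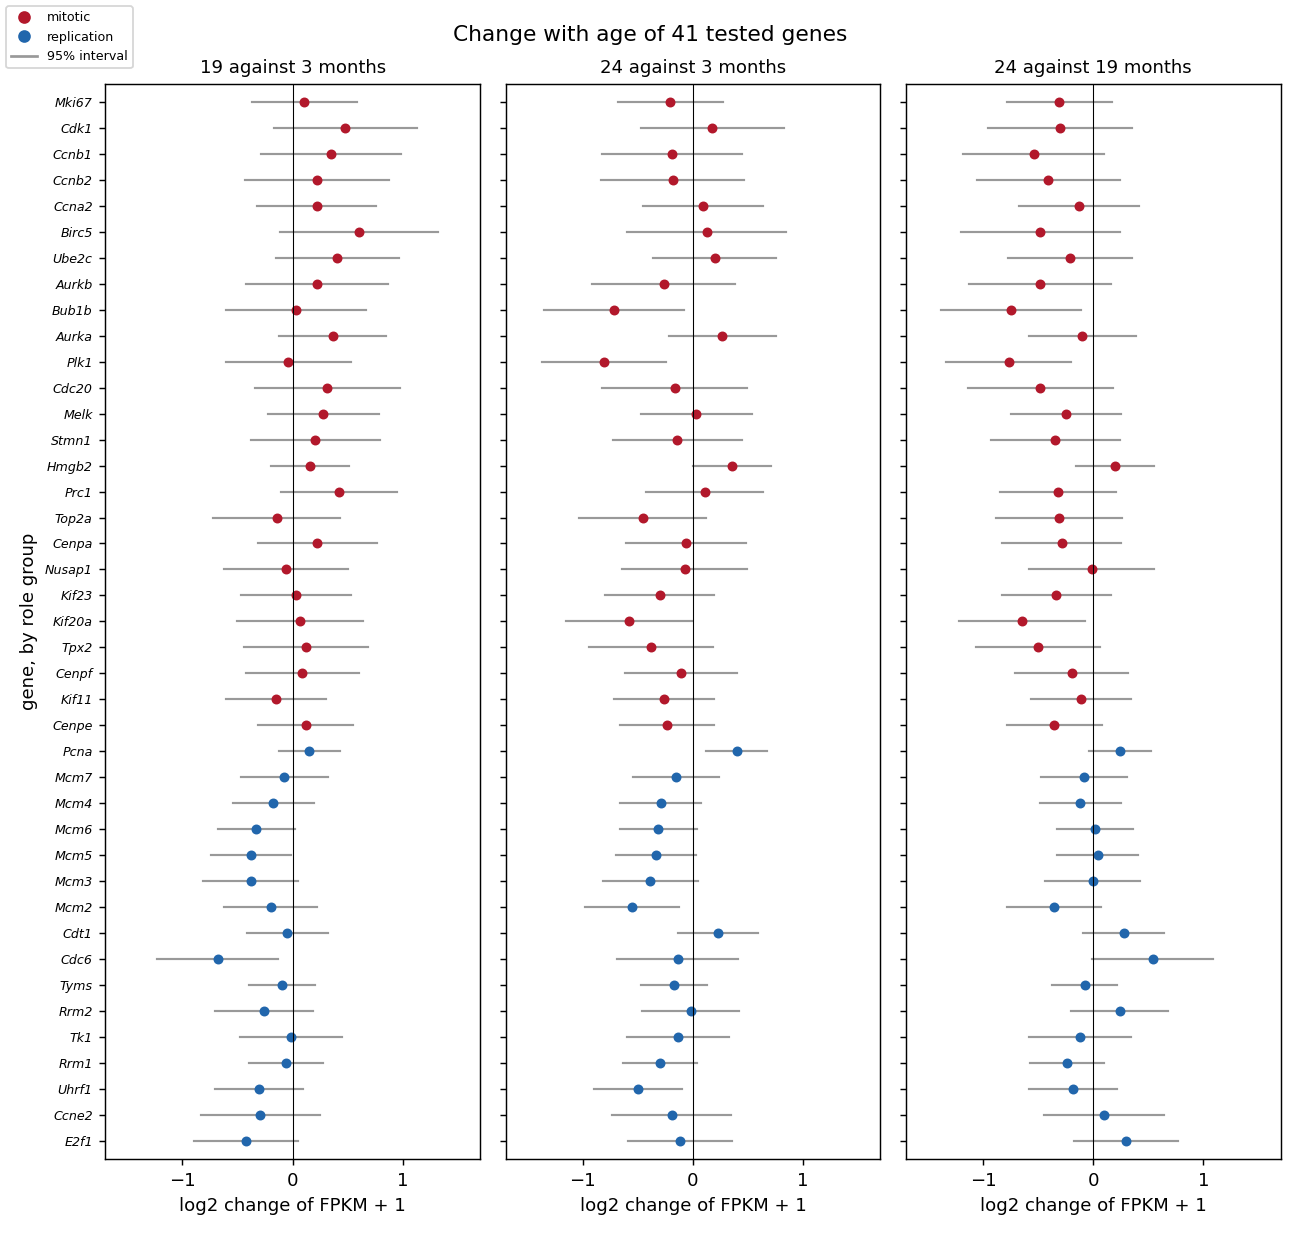
Change in log2(FPKM + 1) (x axis) of the 41 tested genes (y axis, by role) in 3 comparisons of ages, with limma's 95% interval; red points are mitotic and blue replication genes. Most intervals cross 0, and none of the genes passed the adjusted threshold of 0.05.

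Among the genes of origin licensing and the fork, the mean of Pcna rose and that of Mcm2 fell in order over the 3 ages. The means of Cdc6 and Cdt1 were not in order. Ordered means were also found in other groups, as for Hmgb2, Uhrf1, Top2a and Rrm1. Pcna stood at 78.6, 88.3 and 70.9 FPKM at 3 months, at 83.8, 96.3 and 84.0 at 19 months and at 105, 95.9 and 112 at 24 months. All 3 libraries of 24 months were above all 3 of 3 months, while 19 months overlapped both. Its log2 change at 24 against 3 months was 0.40 ± 0.13 (limma's standard error, n = 3 each, adjusted p = 0.10). Mcm2, a helicase subunit, stood at 9.81, 11.4 and 7.97 FPKM at 3 months, at 8.90, 9.17 and 6.93 at 19 months and at 7.10, 4.46 and 7.59 at 24 months. Every library of 24 months lay below every library of 3 months, with a log2 change of -0.55 ± 0.20 (limma, adjusted p = 0.125).

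The ratio of Pcna to Mcm2 was 7.75 to 8.90 at 3 months, 9.42 to 12.1 at 19 months and 14.7 to 21.5 at 24 months. The 3 ages did not overlap in this ratio, which was picked after the levels had been seen and is given with no test. The ratio of Pcna to Mcm7 was 1.16 to 1.82, 1.57 to 2.03 and 1.83 to 2.61, so there 19 months overlapped both other ages.

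All 6 helicase subunits had a log2 change below 0 at 19 against 3 months (-0.38 to -0.07) and at 24 against 3 months (-0.55 to -0.16), and none passed. Their median was -0.26 and -0.32, beside 0.01 and 0.00 for all genes. Mcm5 stood at 27.5, 24.3 and 18.6 FPKM at 3 months and between 17.9 and 18.6 in all 3 libraries of 24 months, where replicate 3 of 3 months came close to the older values. Mcm3 stood at 24.1, 22.6 and 13.0 FPKM at 3 months, 15.4, 16.3 and 12.2 at 19 months and 14.6, 12.9 and 16.1 at 24 months. Replicates 1 and 2 of 3 months were above all other libraries, and replicate 3 was among the low ones. Without replicate 1 of 3 months, 5 of the 6 subunits lay below 0 in both comparisons with 3 months, and without replicate 3 of 19 months 5 of 6 did at 19 months.

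The licensing factors Cdc6 and Cdt1 load the helicase onto origins, and neither passed the test. Cdc6 stood at 2.57, 4.22 and 2.06 FPKM at 3 months, at 0.561, 2.07 and 1.90 at 19 months and at 2.28, 2.70 and 2.51 at 24 months. Replicate 1 of 19 months was far below the others, and its log2 change at 19 against 3 months was -0.68 ± 0.26 (limma, adjusted p = 0.212). Cdt1 stood at 3.32, 2.59 and 3.20 FPKM at 3 months and at 4.07, 3.44 and 3.64 at 24 months, just above all the younger libraries (log2 change 0.23).

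None of the 4 nucleotide synthesis genes passed the test. Tyms had the smallest ratio of highest to lowest library of the 43 genes, at 1.36, with all 9 values between 41.2 and 55.9 FPKM. Rrm1 lay between 20.2 and 30.8 FPKM. Rrm2 was at 52.3 and 58.2 FPKM in replicates 3 and 4 of 24 months and at 32.0 in replicate 2, so the libraries of that age held both its highest values and nearly its lowest. Tk1, the thymidine kinase of S phase, varied more, at 37.0, 28.8 and 19.1 FPKM at 3 months, 22.2, 35.8 and 24.9 at 19 months and 25.9, 21.4 and 27.6 at 24 months, with both its highest and its lowest value at 3 months. The log2 changes of the 4 genes ran from -0.26 to -0.01 at 19 against 3 months and from -0.30 to -0.02 at 24 against 3 months.

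Of the genes at the entry to S phase, E2f1, an activator of the replication genes, was low, at 1.69, 2.04 and 1.13 FPKM at 3 months, 1.14, 1.39 and 0.421 at 19 months and 1.38, 1.15 and 1.66 at 24 months. The groups overlapped, with log2 changes of -0.42 and -0.12 against 3 months. Uhrf1, which directs maintenance methylation to newly replicated DNA, stood at 16.0, 14.7 and 10.5 FPKM at 3 months and at 10.2, 7.71 and 10.2 at 24 months. Its 24-month libraries lay below those of 3 months by little in the case of replicate 3, with a log2 change of -0.50 ± 0.19 (limma, adjusted p = 0.143). Ccne2 ranged from 2.50 to 5.91 FPKM and Ccne1 from 0.339 to 1.03, with all 3 ages overlapping.

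Mitotic kinases and checkpoint genes had the largest differences at 24 months. Plk1, the polo kinase of mitotic entry, stood at 4.35, 4.14 and 2.90 FPKM at 3 months, at 2.82, 4.54 and 3.68 at 19 months and at 3.35, 0.872 and 1.46 at 24 months. Replicates 3 and 4 of 24 months were below every other library, and replicate 2 was within the younger range. The log2 change was -0.81 ± 0.27 at 24 against 3 months (limma, adjusted p = 0.10) and -0.77 ± 0.27 at 24 against 19 months (limma, adjusted p = 0.217). Without replicate 2 of 24 months, the library within the younger range, it passed in both. The log2 changes were then -1.15 (limma, adjusted p = 0.0200) and -1.11 (limma, adjusted p = 0.0306). Among all alternatives the highest adjusted p from limma was 0.276 and 0.601. The log2 changes nearest to 0 were -0.54 and -0.50.

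Bub1b, a checkpoint protein that restrains the anaphase-promoting complex, stood at 4.24, 5.98 and 3.04 FPKM at 3 months, at 3.35, 6.29 and 3.95 at 19 months and at 3.93, 1.01 and 2.36 at 24 months. Replicate 3 of 24 months was the lowest, and the log2 change at 24 against 3 months was -0.72 ± 0.30 (limma, adjusted p = 0.177). Cdc20, the activator of that complex, was also lowest in this library, at 0.728 FPKM, with 2.44 to 5.08 in the other 8. Kif20a, a kinesin of cytokinesis, stood at 5.30, 5.42 and 2.27 FPKM at 3 months and at 2.41, 1.65 and 3.38 at 24 months. Replicate 3 of 3 months lay within the 24-month range (log2 change -0.58 ± 0.27, limma, adjusted p = 0.229).

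Birc5, survivin of the chromosomal passenger complex, ranged most in absolute terms among the genes of its group, at 15.8, 12.0 and 4.69 FPKM at 3 months, 9.81, 22.7 and 16.0 at 19 months and 10.9, 8.30 and 13.5 at 24 months. Its highest and lowest values were in replicate 2 of 19 months and replicate 3 of 3 months. The log2 change at 19 against 3 months, 0.60 ± 0.34, was the largest of any member upwards (limma, adjusted p = 0.405). Without both of these libraries it was -0.12.

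The mitotic cyclins and Cdk1 showed the same 2 libraries at the ends. Ccnb1, cyclin B1, stood at 8.32, 9.63 and 3.60 FPKM at 3 months, at 5.45, 12.8 and 9.59 at 19 months and at 5.60, 4.84 and 6.95 at 24 months. Cdk1 stood at 17.5, 17.7 and 6.96 FPKM at 3 months, at 12.9, 23.6 and 20.8 at 19 months and at 14.7, 10.8 and 20.4 at 24 months. For both, replicate 3 of 3 months was the lowest and replicate 2 of 19 months the highest of the 9 libraries, and the ages overlapped. Ccnb2 and Ccna2 also had their lowest value in replicate 3 of 3 months.

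Mki67 stood at 2.62, 2.87 and 2.06 FPKM at 3 months, at 1.63, 4.17 and 2.91 at 19 months and at 2.22, 1.84 and 2.06 at 24 months. The libraries of 19 months held both the lowest and the highest value. Its log2 changes were 0.11, -0.20 and -0.31 in the 3 comparisons, none past the test, and the first of these was -0.12 without replicate 2 of 19 months.

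Among the genes of the centromere, spindle and mitotic chromosome, Stmn1 was the highest, from 31.2 FPKM in replicate 3 of 24 months to 78.8 in replicate 2 of 19 months. Cenpe, a kinetochore motor, was the lowest, from 0.337 to 1.34 FPKM in the same 2 libraries. Top2a, which untangles sister chromatids, was at 22.2, 17.4 and 9.35 FPKM at 3 months and 13.8, 8.17 and 11.6 at 24 months, with overlap. Prc1, which bundles midzone microtubules, ranged from 9.92 to 26.1 FPKM, again from replicate 3 of 3 months to replicate 2 of 19 months. Hmgb2, a chromatin protein, was at 31.1, 37.0 and 25.0 FPKM at 3 months and 38.3, 34.7 and 46.1 at 24 months (log2 change 0.35).

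The mitotic genes varied together from library to library, within each age. Of the 26 mitotic genes, 17 had their highest level of the 9 libraries in replicate 2 of 19 months, where 10.3% of all tested genes did. In replicate 3 of 3 months 13 had their lowest, where 13.2% of all tested genes did, and in replicate 3 of 24 months 8 did, beside 8.76%. Within each age 1 library stood apart: of the 25 tested mitotic genes, 24 were lowest of their age in replicate 3 of 3 months, 25 in replicate 1 of 19 months and 20 in replicate 3 of 24 months. For all tested genes these shares were 33.3%, 41.5% and 30.3%. Since mitotic genes are expressed together in dividing cells, their values are not independent of each other. In bulk RNA, fewer dividing cells and less of these RNAs per cell cannot be told apart.

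The summed FPKM of the tested mitotic genes was 264, 254 and 136 at 3 months, 179, 322 and 260 at 19 months and 225, 157 and 233 at 24 months. The ages overlapped, and the highest library was of 19 months and the lowest of 3 months. The median deviation of a mitotic gene from its own mean was 0.53 on the log2 scale in replicate 2 of 19 months, -0.47 in replicate 3 of 3 months and -0.42 in replicate 3 of 24 months, while the median of all genes stayed between -0.04 and 0.03 in the 9 libraries.

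**Figure D4:**
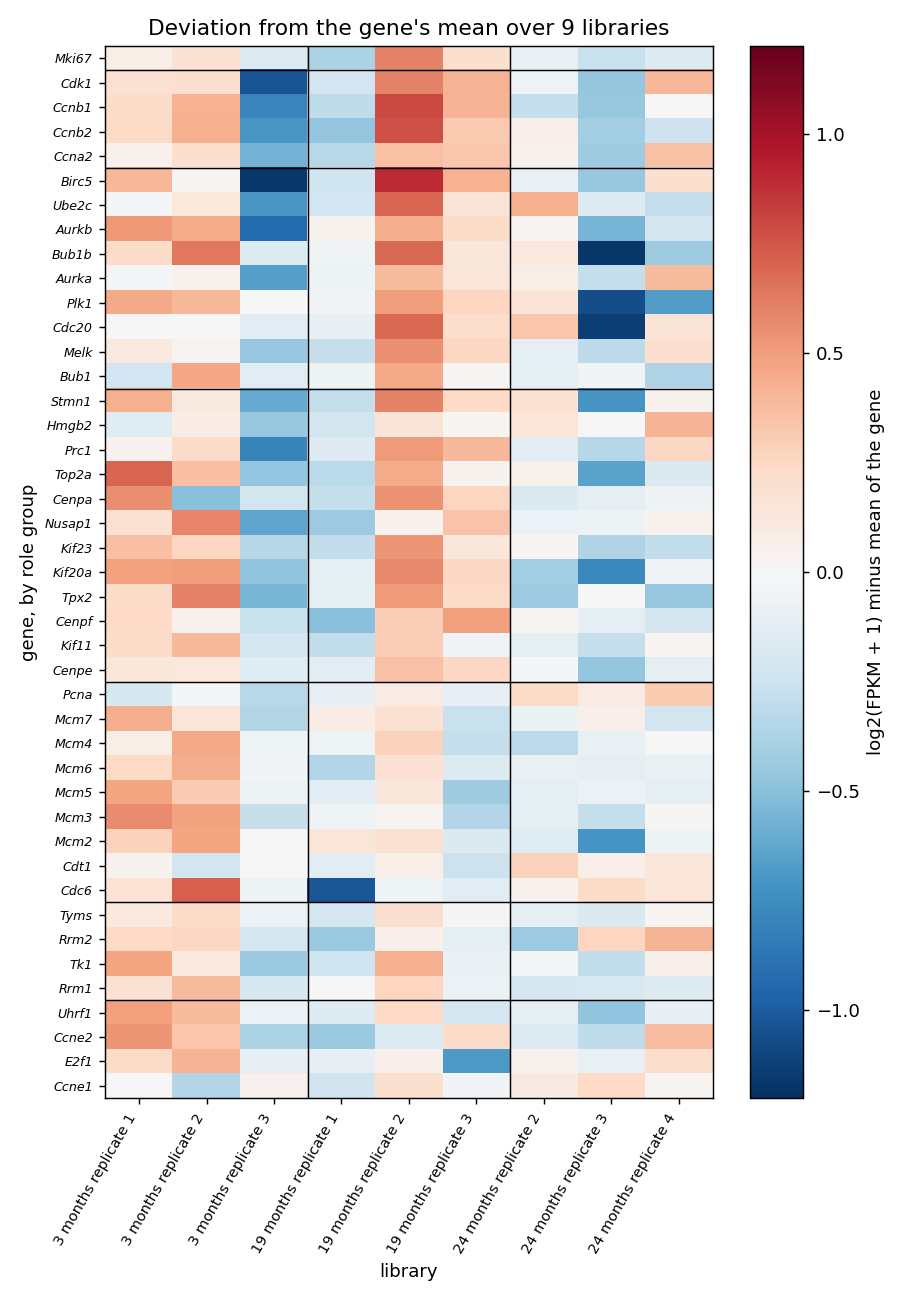
Deviation of log2(FPKM + 1) from the gene's own mean (colour) for 43 genes (rows, by role, lines between roles) in 9 libraries (columns, lines between ages). Most mitotic genes (upper 4 blocks) are red in replicate 2 of 19 months and blue in replicate 3 of 3 months, replicate 1 of 19 months and replicate 3 of 24 months.

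Spread within an age was summarised for each class. The median within-age SD of log2(FPKM + 1) was 0.42 for the 25 tested mitotic genes, 0.26 for the 16 tested replication genes and 0.21 for all tested genes. The 9776 tested genes between the lowest and the highest mitotic mean had a median of 0.21 as well. That range holds most of the 11509 tested genes, so it does not match the mitotic genes in level. The median range between the means of the 3 ages was 0.41, 0.31 and 0.29. In 13 of 25 mitotic genes (52.0%) that range was smaller than the SD within an age, as in 4 of 16 replication genes (25.0%) and 31.1% of all tested genes. Birc5 had the largest SD, 0.60, and Pcna the smallest, 0.13.

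Replication genes shared part of this pattern and differed in where their highest values lay. Of 17 replication genes, 6 were highest of the 9 libraries in replicate 1 of 3 months and 7 in replicate 2, and none in replicate 2 of 19 months. For all tested genes these shares were 9.88%, 14.8% and 10.3%, so with 17 genes the last count is not far from the background. Within ages, 15 of 16 tested were lowest of 3 months in replicate 3, and 15 of 16 were highest of 19 months in replicate 2, as the mitotic genes were. Of all tested genes 33.3% and 36.8% were. The summed FPKM was 458, 464 and 339 at 3 months, 357, 445 and 354 at 19 months and 377, 383 and 422 at 24 months.

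The classes therefore had different signs at 19 months. At 19 against 3 months the median log2 change was 0.20 for mitotic genes, with 21 of 25 above 0, and -0.23 for replication genes, with 15 of 16 below 0, while 50.8% of all genes lay above 0. At 24 against 3 months the medians were -0.16 and -0.18, with 8 of 25 mitotic genes above 0 and 14 of 16 replication genes below. At 24 against 19 months they were -0.32, with 1 of 25 above 0, and 0.00, with 8 of 16 below. Both comparisons with 3 months share the 3-month libraries. The 19-month libraries enter the first and the last comparison on opposite sides, so these are not independent. No single gene of either class passed the test.

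The sign of the mitotic median rested on the libraries at the ends. At 19 against 3 months, without replicate 3 of 3 months it was -0.02 with 11 of 25 genes above 0, without replicate 2 of 19 months it was 0.02 with 13 of 25, and without both it was -0.22 with 2 of 25. The replication median was below 0 in each of these fits, at -0.49 with 15 of 16 below 0 without both. With single libraries left out it ran from -0.36 without replicate 3 of 3 months to -0.15 without replicate 1 or replicate 3 of 19 months, and the count below 0 was lowest without replicate 3 of 19 months, at 11 of 16. At 24 against 3 months the mitotic median ran from -0.33 without replicate 3 of 3 months to -0.01 without replicate 1 of 3 months. At 24 against 19 months it was -0.13 with 5 of 25 above 0 without replicate 2 of 19 months, and -0.55 with 1 of 25 without replicate 1 of that age. The replication genes below 0 in that comparison were 3 of 16 without replicate 2 of 19 months and 10 of 16 without replicate 3.

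**Figure D5:**
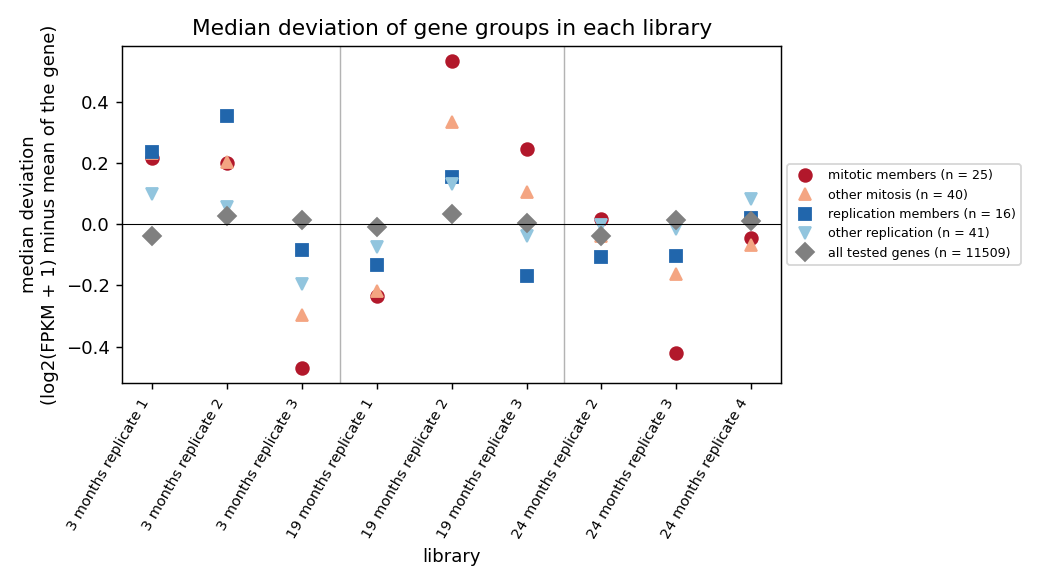
Median deviation from the gene's own mean (y axis, log2(FPKM + 1)) of 5 gene groups in each library (x axis, lines between ages). The mitotic genes run from -0.47 in replicate 3 of 3 months to 0.53 in replicate 2 of 19 months, the other mitosis genes follow them, and all tested genes stay near 0.

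Other genes of mitosis, 40 of them tested, followed the 26. Of these 40, 31 were lowest of their age in replicate 3 of 3 months, 36 in replicate 1 of 19 months and 22 in replicate 3 of 24 months, and 18 were highest of all in replicate 2 of 19 months. In 41 other replication genes the pattern was weaker, with 26 lowest of their age in replicate 3 of 3 months and 29 highest of their age in replicate 2 of 19 months.

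Markers of other cells were set beside the pattern. The summed FPKM of 7 hair matrix genes, which mark the dividing progeny of these stem cells, was 17.7, 15.2 and 22.0 at 3 months, 15.1, 14.8 and 19.1 at 19 months and 12.5, 12.3 and 16.3 at 24 months. It was highest in the library of 3 months where the mitotic genes were lowest. At 19 months it was lowest in replicate 2, where they were highest, and at 24 months lowest in replicate 3, where they were lowest too. Of these matrix genes, Hoxc13 and Dlx3 had the highest means, 7.68 and 4.57 FPKM, and ranged from 5.18 to 10.4 and from 2.98 to 7.07. Shh was at 0 in 7 of 9 libraries. The sum of 5 immune genes, most of it Cd74, was 24.6, 58.1 and 34.7 at 3 months, 21.9, 51.7 and 33.0 at 19 months and 45.0, 23.7 and 46.5 at 24 months. It was lowest of its age in replicates 1 of 19 months and 3 of 24 months, where the mitotic genes were lowest too, and between the other 2 libraries in replicate 3 of 3 months. Cd3e was present in every library, at 2.10 to 9.80 FPKM, while Ptprc stayed between 0.0756 and 0.620 and Lyz2 was at 0 in 8 of 9 libraries. The sum of 5 sebaceous genes was 50.2 to 70.0 at 3 months and 19.3 to 25.4 at the older ages. The sum of 5 melanocyte genes was 12.1 to 18.2 at 3 months and 6.46, 8.37 and 7.84 at 19 months. At 24 months it was 8.55, 4.32 and 9.02. It too was lowest of its age in replicates 1 of 19 months and 3 of 24 months. At 3 months it was lowest in replicate 1 instead. Replicate 3 of 3 months, where the mitotic genes were lowest, lay between the other 2 libraries. The sum of 4 genes of differentiated epidermis was 128, 104 and 109 at 3 months, 96.5, 99.2 and 80.8 at 19 months and 181, 87.9 and 151 at 24 months, where all 4 were lowest in replicate 3. The sum of 5 fibroblast genes lay between 5.99 and 15.9. The part of these cells in the levels of the 43 genes was not tested.

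Genes that control the cycle were examined in 3 further lists. Of 31 tested genes of RB, E2F, DREAM and CDK control, 1 fell at 19 against 3 months and 1 at 24 against 3 months. At 24 against 19 months 1 rose. Of all genes 1.56%, 3.84% and 0.930% passed in these comparisons, the shares to set beside all 3 lists. Wee1, the kinase that holds Cdk1 inactive until mitosis, stood at 7.17, 8.10 and 6.35 FPKM at 3 months, at 1.37, 1.65 and 1.83 at 19 months and at 5.12, 6.99 and 3.87 at 24 months. The 19-month libraries lay far below all others. Wee1 fell at 19 against 3 months by 1.65 ± 0.20 on the log2 scale (limma, adjusted p = 6.03e-04) and rose from 19 to 24 months by 1.25 ± 0.20 (limma, adjusted p = 0.00795). The fall passed under all 19 alternatives, and the rise under 17, the exceptions being no filter on low values (limma, adjusted p = 0.116) and all rows of the table (limma, adjusted p = 0.112).

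Cdk6, a kinase of G1 that phosphorylates RB, stood at 25.4, 30.5 and 26.4 FPKM at 3 months, at 19.7, 20.4 and 19.9 at 19 months and at 20.8, 17.6 and 14.7 at 24 months. All older libraries lay below all those of 3 months, and it fell at 24 against 3 months by 0.61 ± 0.15 (limma, adjusted p = 0.0337). The medians of the list were 0.04, -0.03 and -0.05 in the 3 comparisons, near those of all genes.

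Of 41 other replication genes tested, 1 fell at 24 against 3 months and none passed in the other 2 comparisons. In each of those comparisons, 3 had an unadjusted p under 0.05. Of all 11509 genes, 1804 did at 19 against 3 months and 1468 at 24 against 19 months. Orc1, the largest subunit of the origin recognition complex, stood at 1.61, 1.54 and 1.33 FPKM at 3 months, at 1.23, 1.51 and 0.787 at 19 months and at 0.520, 0.353 and 0.597 at 24 months. The 24-month libraries were below all the others, and it fell by 0.74 ± 0.19 on the log2 scale (limma, adjusted p = 0.0393). Every value of 24 months lay under 1 FPKM, so Orc1 met the filter on low values through the younger libraries only. The size of the change depended on the pseudocount, at -1.45 with 0.1. With no filter on low values it did not pass (limma, adjusted p = 0.0534). The lowest at 19 against 3 months were Pole and Pola1, polymerase subunits, with log2 changes of -0.52 and -0.48, and the highest Tipin, of the fork protection complex, and Lig1, DNA ligase, with 0.38 and 0.29. At 24 against 19 months Orc1 and Rpa1, of the single-strand binding complex, were lowest, at -0.54 and -0.40, and Pola1 and Clspn, a checkpoint mediator, highest, both at 0.35.

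Of 40 other mitosis genes tested, 2 rose and 1 fell at 24 against 3 months. None passed at 19 against 3 or 24 against 19 months. There 4 and 5 had an unadjusted p under 0.05, beside 1804 and 1468 of all 11509 genes. Pttg1, securin, stood at 89.8, 94.5 and 83.4 FPKM at 3 months, at 114, 131 and 150 at 19 months and at 144, 129 and 152 at 24 months. The 3-month libraries lay below all others, and it rose at 24 months by 0.66 ± 0.13 on the log2 scale (limma, adjusted p = 0.0141). At 19 against 3 months its change of 0.55 ± 0.13 did not pass (limma, adjusted p = 0.0544). Plk1 and Cdc20, also genes of mitosis, did not pass at 24 against 3 months, at -0.81 and -0.16. Whether their changes differ from that of securin was not tested.

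Ttk, the spindle checkpoint kinase Mps1, stood at 2.41, 1.85 and 2.91 FPKM at 3 months, at 3.44, 4.14 and 3.46 at 19 months and at 5.92, 4.20 and 4.37 at 24 months. The 3 ages did not overlap, and it rose at 24 against 3 months by 0.78 ± 0.19 (limma, adjusted p = 0.0308). Cenpi, a protein of the inner kinetochore, stood at 2.98, 2.34 and 2.15 FPKM at 3 months, at 1.22, 1.30 and 1.71 at 19 months and at 1.26, 1.02 and 1.02 at 24 months. It fell at 24 against 3 months by 0.73 ± 0.18 (limma, adjusted p = 0.0362), with all older libraries below those of 3 months.

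Cenpi and Hjurp, the chaperone of Cenpa, were lowest of this list at 19 against 3 months, at -0.53 and -0.42, and Pttg1 and Cdca3 highest, at 0.55 and 0.48. At 24 against 19 months Cdca8 and Ckap2 were lowest, at -0.79 and -0.73, and Ttk and Tacc3 highest, at 0.31 and 0.18. None of these passed. With 1 of the 9 libraries left out, the calls at 24 against 3 months held in 7 fits for Pttg1, 5 for Ttk, 4 for Cdk6, 3 for Orc1 and 2 for Cenpi. The log2 changes in those 9 fits ran from 0.61 to 0.73 for Pttg1, from 0.65 to 0.89 for Ttk, from -0.73 to -0.49 for Cdk6, from -0.80 to -0.68 for Orc1 and from -0.80 to -0.63 for Cenpi. With all rows of the table in the fit, none of these 5 passed (limma, adjusted p from 0.0724 to 0.0886).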

How the data were processed

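Total RNA of sorted hair follicle stem cells was sequenced, and 1 FPKM value per row and library was deposited. The submitters' processing notes list TopHat, Cuffdiff and NCBIM37. For these, no version, setting or strand use is given in the sources used here. The authors deposited FPKM without read counts, so depth is unknown, and the low values showed no clear step of a single read. Libraries were grouped by the age in the labels. All 9 value columns were mapped.

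The members, the gene lists and the choice of protein-coding genes for the fit were made with earlier results of these data known. Gene types and exon overlaps came from GENCODE M21 by Ensembl identifier. Genes reaching 1 FPKM in 3 or more libraries were tested (11509). Left out were 36 rows of the table at 0 in every library of an age with at least 5 FPKM in every library of another. limma 3.58.1 in R 4.3.3, with a mean-dependent prior, was run on log2(FPKM + 1) with all 9 libraries, two-sided, with Benjamini-Hochberg adjustment over all genes and a threshold of 0.05; it was tested on simulated data. Errors of changes are limma's standard errors. Tables were handled with Python 3.11.15 and pandas 2.3.3.

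Genes named are the 5 members with the largest change per comparison, the highest and lowest of each role, the untested, and Mki67, Pcna, Ccnb1, Cdk1, Mcm2 and E2f1; of the 3 further lists, those past the threshold, or the highest and lowest 2. Other members were named after their values were seen. Promoters are from RefSeq (GRCm38.p6). Alternatives were pseudocounts of 0.1 and 0.5, no filter on low values, all rows, quantile and median scaling, a robust prior, a replicate block, only the 2 ages compared and each library left out.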

Additional observations from a re-analysis of the deposited data

How the results depend on the processing

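Of 551 values of 29 named log2 changes under 19 alternatives, 537 kept direction and call. The count of members called stayed at 0 in 72 of 75 cases; without replicate 2 of 24 months it was 1 (Plk1) in both comparisons with 24 months and in the F test, so single-library omissions gave 0 to 1. Directions turned for uncalled changes only. At 19 against 3 months, leaving out each library gave -0.12 to 0.36 for Mki67 (lowest without replicate 2 of 19 months), -0.021 to 0.65 for Ccnb1 (lowest without replicate 3 of 3 months), 0.14 to 0.92 for Birc5, 0.072 to 0.73 for Cdk1 and 0.11 to 0.63 for Prc1. At 24 against 3 months it gave -0.56 to 0.042 for Ccnb1 (above 0 without replicate 2 of 3 months) and -0.23 to 0.39 for Cdk1, which was below 0 without replicate 3 of 3 months, without replicate 4 of 24 months (-0.041) and with the replicate block (-0.063). Leaving out both replicate 3 of 3 months and replicate 2 of 19 months, chosen after the data had been seen, gave -0.12 for Birc5, -0.094 for Cdk1, -0.021 for Prc1, -0.22 for Mki67 and -0.27 for Ccnb1 at 19 against 3 months and -0.23 for Cdk1 at 24 against 3 months. Then no member passed limma's adjusted test (smallest adjusted p from limma 0.0671).

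Counts over all genes, 180, 442, 107 and 523 at 19 against 3, 24 against 3, 24 against 19 months and any age, moved more. They were 53, 118, 0 and 59 with no filter on low values, 40, 29, 7 and 32 with all rows, and 70, 228, 23 and 161 without both libraries. With the replicate block, 158 genes passed at 24 against 3 months, and with quantile scaling 59 at 24 against 19 months. Leaving out each library gave 46 to 231, 133 to 457, 20 to 214 and 181 to 544. The cause of these moves was not tested. The 7 pairs of same-numbered libraries had r across genes from -0.20 to 0.19, and differently numbered ones from -0.23 to 0.16. Genes are not independent and the pairs are few, so whether the replicate number marks a shared preparation cannot be decided from these values. With that block, Pttg1, Ttk, Orc1, Cdk6 and Cenpi had adjusted p from limma of 0.103 to 0.169 at 24 against 3 months. With scaling to the median, the median change of all genes was 0.05, 0.05 and -0.01. Depth is unknown, and for genes near 1 FPKM no limit of detection can be given.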
